A study of Homo sapiens with 4 samples.

Results

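The epithelial to mesenchymal switch genes described here are 10 genes, CDH1, CDH2, CDH3, EPCAM, VIM, SNAI1, SNAI2, ZEB1, ZEB2 and TWIST1, of 62218 genes with a count value in the series. They were chosen by symbol, and each gene took the count of its transcript with the largest mean count, out of 128 annotated transcripts of the 10 genes. Nanopore cDNA libraries were made from human embryonic stem cells (hESCs) of the H1 line, labelled wild type, in the naïve and the primed state, with 2 replicates per state. Primed hESCs were H1 cells kept in mTeSR1 medium on Matrigel and were taken at 60 to 70% confluency. Naïve hESCs were derived from the primed H1 cells and kept at low oxygen on Matrigel with reduced growth factors in FINE medium, which holds Dasatinib, AZD5438, SB590885, PD0325901, Y-27632, human LIF, Activin A and bFGF, and were taken at 50% confluency. Both states therefore come from 1 line, and no label says that the replicates came from separate cultures, so the p-values measure only the spread between these libraries. Counts summed over all transcripts ranged from 129276054 to 161548901 per library. At the depth of the gene counts, 3 counts correspond to 0.0978 to 0.130 normalized read counts (CPM, a count scaled to the size of the library).

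Epithelial cells hold to each other through E-cadherin (CDH1) and P-cadherin (CDH3), whose tails bind catenins, and carry the adhesion molecule EPCAM on their surface. Mesenchymal cells carry N-cadherin (CDH2) and build intermediate filaments of vimentin (VIM). The SNAI and ZEB zinc finger proteins and the basic helix-loop-helix protein TWIST1 are transcription factors that repress epithelial genes such as CDH1 in the switch from the former to the latter, and the miR-200 family of small RNAs restrains ZEB1 and ZEB2. Primed hESCs grow as flat epithelial sheets and express E-cadherin, while naïve hESCs grow as domed colonies.

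The miR-200 family is shown because its seeds, which pair with targets, separate the members studied here. The mature RNAs below are from RefSeq (GRCh38.p14), with the seed, bases 2 to 8, in capitals, and fall into a group with seed AAUACUG and a group with seed AACACUG.
hsa-miR-200b-3p: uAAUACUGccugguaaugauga
hsa-miR-200c-3p: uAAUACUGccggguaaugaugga
hsa-miR-429: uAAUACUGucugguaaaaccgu
hsa-miR-200a-3p: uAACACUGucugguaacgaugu
hsa-miR-141-3p: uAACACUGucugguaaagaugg
CAGTATT, the 7 letters that pair with the former seed, were found 6 times in the 3′ untranslated end of ZEB1 (ZEB1-202) and 5 times in that of ZEB2 (ZEB2-226). Of 19936 such ends searched, 1 per gene, 0.010% held 6 or more and 0.0401% held 5 or more. The ends of ZEB1 and ZEB2 are 2543 and 5373 bases long, against a median of 1029, and these shares are not corrected for length. CAGTGTT, which pairs with the other seed, was found 3 times in ZEB1 and 4 times in ZEB2. SNAI2 held 1 CAGTATT, and 15.7% of the ends searched held at least 1, and the other 7 members held neither. These searches were added after the values of the members had been seen, and a match is no proof of pairing. The mature RNAs were not measured. MIR200CHG, the host transcript of miR-200c and miR-141, had 35 and 35 counts in naïve hESCs and 4 and 10 in primed hESCs, a log2 fold change (primed over naïve, here and throughout) of -2.61 ± 0.43 (SE, n = 2 per state, adjusted p = 1.0e-06).

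The SPTLC1P1 pseudogene and the 5′ end of ZEB1 are shown because most alignments counted on ZEB1 lay there in at least 1 state. SPTLC1P1 is a processed copy of SPTLC1, a subunit of the enzyme that starts sphingolipid synthesis, and lies in an intron of ZEB1 on the same strand, at chr10:31360955-31361215 (GRCh38, plus strand). Of 260 bases aligned to the SPTLC1 transcript, 258 were identical, and the capitals mark the 2 that differ.
SPTLC1P1: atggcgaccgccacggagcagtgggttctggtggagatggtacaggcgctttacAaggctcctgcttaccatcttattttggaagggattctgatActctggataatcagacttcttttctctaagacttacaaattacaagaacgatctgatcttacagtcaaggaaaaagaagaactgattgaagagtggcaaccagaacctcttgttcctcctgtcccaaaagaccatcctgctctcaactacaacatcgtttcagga
RefSeq promoter windows, from 250 bases before to 50 bases after a start site, were matched for 4 of the 10 members, CDH2, VIM, ZEB1 and ZEB2. Members of the SNAI and ZEB families bind E-boxes of the form CAGGTG or, on the other strand, CACCTG. At least 1 such match stood in 20.6% of 35116 windows and at least 3 in 0.635%. A ZEB1 window, chr10:31318966-31319265 (plus strand), held 3, which are in capitals. Another ZEB1 window held 1. The other 5 ZEB1 windows and those of CDH2, VIM and ZEB2 held none.
ZEB1: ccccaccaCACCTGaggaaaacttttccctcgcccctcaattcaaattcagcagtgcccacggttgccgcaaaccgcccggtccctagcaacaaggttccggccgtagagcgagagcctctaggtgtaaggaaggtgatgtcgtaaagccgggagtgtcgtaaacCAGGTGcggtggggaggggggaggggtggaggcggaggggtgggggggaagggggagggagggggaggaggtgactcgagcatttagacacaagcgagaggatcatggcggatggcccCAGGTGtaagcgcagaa
The windows at the 5′ ends of VIM (chr10:17227991-17228290, plus strand) and CDH2 (chr18:28177081-28177380, minus strand), the members with the largest differences, are given beside it.
VIM: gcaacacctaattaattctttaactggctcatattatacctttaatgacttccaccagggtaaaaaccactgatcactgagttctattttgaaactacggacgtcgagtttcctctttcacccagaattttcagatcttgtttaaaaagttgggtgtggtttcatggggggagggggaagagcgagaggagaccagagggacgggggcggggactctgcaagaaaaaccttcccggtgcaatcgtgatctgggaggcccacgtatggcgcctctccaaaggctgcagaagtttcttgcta
CDH2: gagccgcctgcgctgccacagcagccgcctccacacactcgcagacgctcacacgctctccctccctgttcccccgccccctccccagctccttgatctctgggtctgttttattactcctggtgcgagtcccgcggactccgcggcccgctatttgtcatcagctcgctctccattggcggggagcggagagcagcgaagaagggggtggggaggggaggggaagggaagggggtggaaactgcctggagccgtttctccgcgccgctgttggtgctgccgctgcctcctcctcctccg
A match is a string of letters and not a bound site, and its lack says nothing about the factors.

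**Figure D1:**
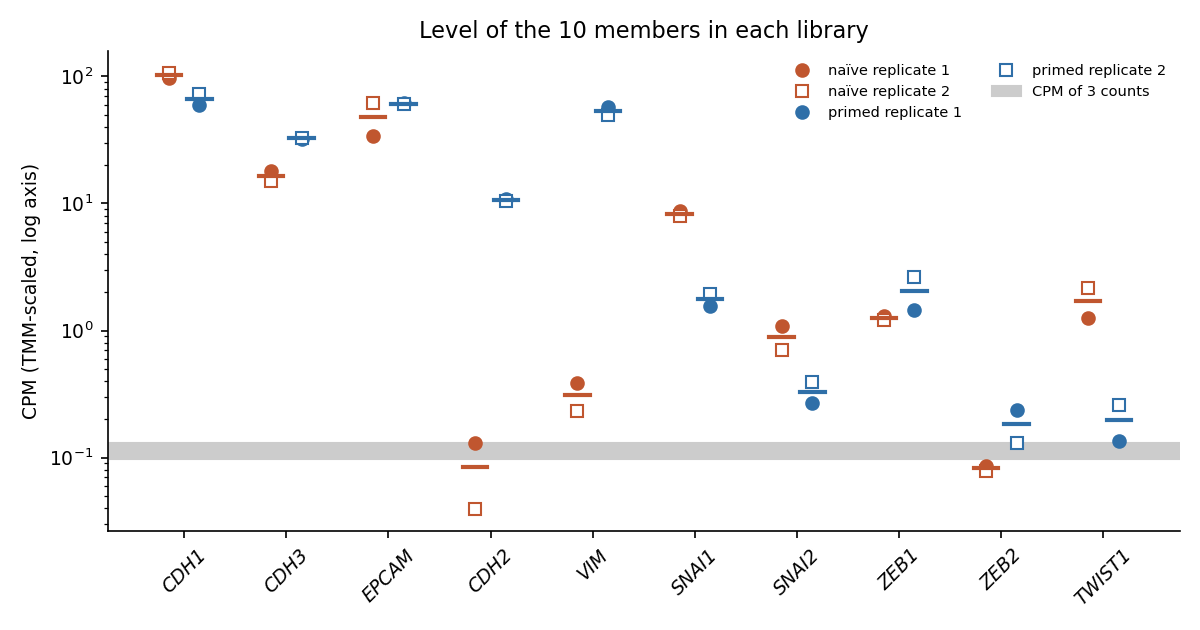
CPM of the 10 members on a log axis, with TMM scaling, in each of the 4 libraries (symbols, with bars for the mean of each state), and in grey the CPM of 3 counts. CDH2 and VIM lay near the grey band in naïve hESCs and at 10.7 and 53.3 CPM in primed hESCs. SNAI1, SNAI2 and TWIST1 lay lower in primed hESCs, and the states overlapped in EPCAM.

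Between the states, the genes encoding the mesenchymal proteins CDH2 and VIM went from a few counts per library in naïve hESCs to over 300 in primed hESCs, while the epithelial genes CDH1, CDH3 and EPCAM were expressed in both. CDH3 was 1.97-fold higher in primed hESCs. CDH1 was 1.55-fold lower with TMM scaling and was not called with plain library sizes, where its log2 fold change was 0.00. The switch factors SNAI1, SNAI2 and TWIST1 were lower in primed hESCs, and ZEB1 was higher. The counted transcript of a gene stands for its span, since every transcript an alignment overlaps is counted, and not for an isoform seen. In edgeR's quasi-likelihood fit over all genes, 9 members had enough counts to be tested, with 10 or more in at least 2 libraries, and 8 were called at an adjusted p under 0.05, 4 higher and 4 lower in primed hESCs. The background is large: 70.0% of 27633 genes tested were called, 37.4% higher and 32.6% lower in primed hESCs, so the number of members called is not a result about them. The scaling matters as well. With plain library sizes the median over all genes tested moved from 0.079 to 0.72 on the log2 scale, so that each fold change given here would lie about 0.64 higher, and 5 members were higher and 2 lower in primed hESCs, beside 56.2% and 16.3% of all genes (72.5% in either direction). DESeq2 called 6 members, 3 in each direction, beside 58.7% of all genes (29.1% higher and 29.6% lower). With a log2 fold change beyond 1 asked for as well, 5 members were called, beside 47.1% of all genes.

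CDH2, the N-cadherin gene (ENSG00000170558, CDH2-201, chr18:27950966-28177130, minus strand, GRCh38), was counted 3 and 1 times in naïve hESCs and 317 and 324 times in primed hESCs. The naïve values are at or under the limit that a count of 0 allows, and the states lie far apart. The mean rose from 0.0846 ± 0.0642 CPM to 10.7 ± 0.143 CPM (SD, n = 2), a log2 fold change of 6.94 ± 0.38 (SE, adjusted p = 1.2e-20). From the pooled counts of each state, the primed level was 130-fold that of naïve hESCs, with an exact 95% interval of 50.3 to 477, which covers counting error only, here and throughout. The log2 fold change was 7.88 without naïve replicate 1 and 6.25 without naïve replicate 2. All 11 CDH2 transcripts tested were called, with log2 fold changes from 6.17 to 7.67. Of the primed alignments on CDH2-201, 49.2% and 62.0% overlapped none of CDH2-206, which covers only the 3′ end of the gene. An antisense gene that crosses the 3′ end, ENSG00000227279, had 2, 1, 168 and 139 counts, and without strand its reads cannot be told apart from those of CDH2.

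VIM, the vimentin gene (ENSG00000026025, VIM-209, chr10:17228241-17237593, plus strand), was counted 9 and 6 times in naïve hESCs and 1680 and 1521 times in primed hESCs. Both naïve libraries lay above the limit of 3 counts, and no naïve value came near a primed one. The mean rose from 0.312 ± 0.109 CPM to 53.3 ± 5.28 CPM (n = 2), a log2 fold change of 7.41 ± 0.26 (adjusted p = 1.2e-27) and a pooled ratio of 172 with a 95% interval of 104 to 309. The short isoform VIM-204, at the 5′ end of the gene, alone overlapped 1467 and 1302 of the primed alignments, so that 12.7% and 14.4% lay wholly downstream of it. Each VIM transcript overlaps another gene. VIM-AS1, antisense to the 5′ end, had 7, 3, 1522 and 1355 counts, and the antisense gene ENSG00000234961 had 7, 5, 1565 and 1374. These counts follow the ones on VIM closely and, strand not being used, can be the same alignments. Both naïve and primed hESCs were counted in bulk, so fewer cells with VIM and less VIM RNA per cell cannot be told apart, and the same holds for every member.

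CDH1, the E-cadherin gene (ENSG00000039068, CDH1-201, chr16:68737292-68835537, plus strand), was counted 2252 and 2736 times in naïve hESCs, against 1756 and 2220 times in primed hESCs. In CPM these are 97.5 and 107 against 59.6 and 72.3, so both primed libraries lay below both naïve ones. The mean fell from 102 ± 6.79 to 66.0 ± 9.0 CPM (n = 2), a log2 fold change of -0.63 ± 0.15 (adjusted p = 1.9e-04). With library sizes in place of TMM the log2 fold change was 0.00 (adjusted p = 0.99), and without primed replicate 1 it was -0.33 (adjusted p = 0.11). All 11 CDH1 transcripts, which share alignments, were called lower with TMM, from -0.69 to -0.48. An antisense gene inside the span, ENSG00000260798, had 477 and 572 counts in naïve and 446 and 408 in primed hESCs. Without strand its reads cannot be told apart from those of CDH1. Alignments outside CDH1-202, which lacks most of the last exon, made up 42.2% and 45.9% in naïve and 37.8% and 45% in primed hESCs.

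CDH3, the P-cadherin gene, lies next to CDH1 (ENSG00000062038, CDH3-201, chr16:68645310-68700292, plus strand) and was counted 413 and 387 times in naïve hESCs, against 953 and 1003 times in primed hESCs. The replicates of each state were close and the states did not overlap. The mean rose from 16.5 ± 1.93 to 32.5 ± 0.236 CPM (n = 2), a log2 fold change of 0.98 ± 0.15 (adjusted p = 4.4e-07), the opposite direction to CDH1 with TMM scaling. Of the 10 CDH3 transcripts tested, 8 were called, and the log2 fold changes ran from 0.12 (CDH3-204) to 1.41 (CDH3-209). The antisense gene CDH3-AS1, across the 5′ end, had 158, 142, 348 and 267 counts.

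EPCAM, the gene of an epithelial adhesion molecule (ENSG00000119888, EPCAM-204, chr2:47345163-47387601, plus strand), was counted 787 and 1572 times in naïve hESCs, against 1818 and 1855 times in primed hESCs. Its states overlapped: naïve replicate 2, at 61.6 CPM, lay between the primed libraries, at 61.7 and 60.4 CPM, and naïve replicate 1 lay at 34.1 CPM. The log2 fold change was 0.35 ± 0.17 (adjusted p = 0.062). The value depended on the naïve replicates and was -0.072 (adjusted p = 0.74) without naïve replicate 1 and 0.78 (adjusted p = 1.2e-04) without naïve replicate 2. With library sizes it was 0.98 (adjusted p = 1.4e-04). It was also called among genes with at least 50 counts (0.45, adjusted p = 0.031) and on a transcript that overlaps no other gene (0.50, adjusted p = 0.024), and all 6 EPCAM transcripts tested were called, from 0.37 to 0.48. The naïve replicates differed 1.81-fold in EPCAM, and of 5354 genes with a mean naïve count of at least 500, 0.411% differed by more, the median being 1.10-fold.

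**Figure D2:**
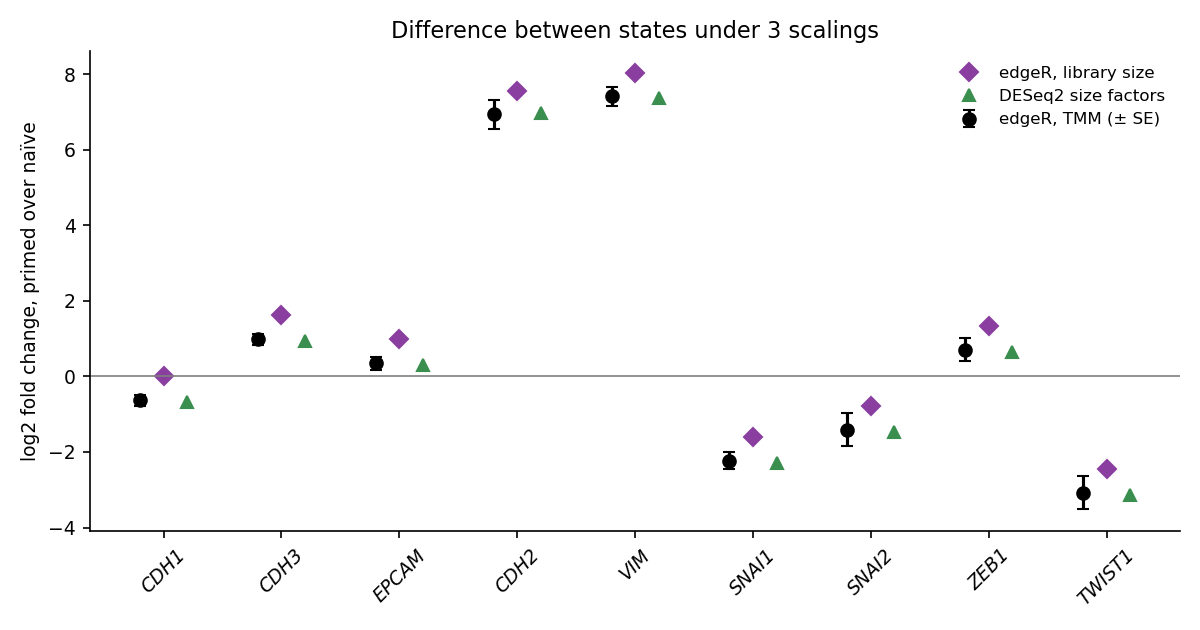
Log2 fold change, primed over naïve, of the 9 members tested, from edgeR with TMM scaling (circles, ± SE), edgeR with plain library sizes (diamonds) and DESeq2 (triangles). CDH1 lies at -0.63 with TMM and at 0.00 with library sizes, while CDH2 and VIM lie above 6 under each scaling.

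Ratios of raw counts within a library do not depend on the scaling between libraries, and are not corrected for length. CDH2 stood at 0.133% and 0.0365% of CDH1 in the naïve libraries and at 18.1% and 14.6% in the primed libraries. The log2 ratio rose by 7.86, from -10.48 ± 1.32 to -2.62 ± 0.22 (SD, n = 2), and the rise was 8.79 without naïve replicate 1 and 6.93 without naïve replicate 2. VIM stood at 1.14% and 0.382% of EPCAM in the naïve libraries and at 92.4% and 82.0% in the primed libraries, a rise of 7.04 on the log2 scale, which was 7.83 without naïve replicate 1 and 6.25 without naïve replicate 2. CDH3 against CDH1 moved from 18.3% and 14.1% to 54.3% and 45.2%, a log2 difference of 1.62, and CDH2 against CDH3 by 6.24 (6.99 without naïve replicate 1 and 5.50 without naïve replicate 2). The log2 ratio of SNAI2 to SNAI1 moved from -3.25 ± 0.35 to -2.42 ± 0.14, a difference of 0.82. For these 5 pairs the primed libraries lay above both naïve libraries, with an exact two-sided permutation p of 0.33, the smallest that 2 against 2 libraries allow. ZEB2 against ZEB1, both at low counts, overlapped between the states (exact permutation p = 1.0). In all, 6 pairs were compared, and with Benjamini-Hochberg adjustment the 5 separated pairs stood at p = 0.40 by the exact permutation test.

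**Figure D3:**
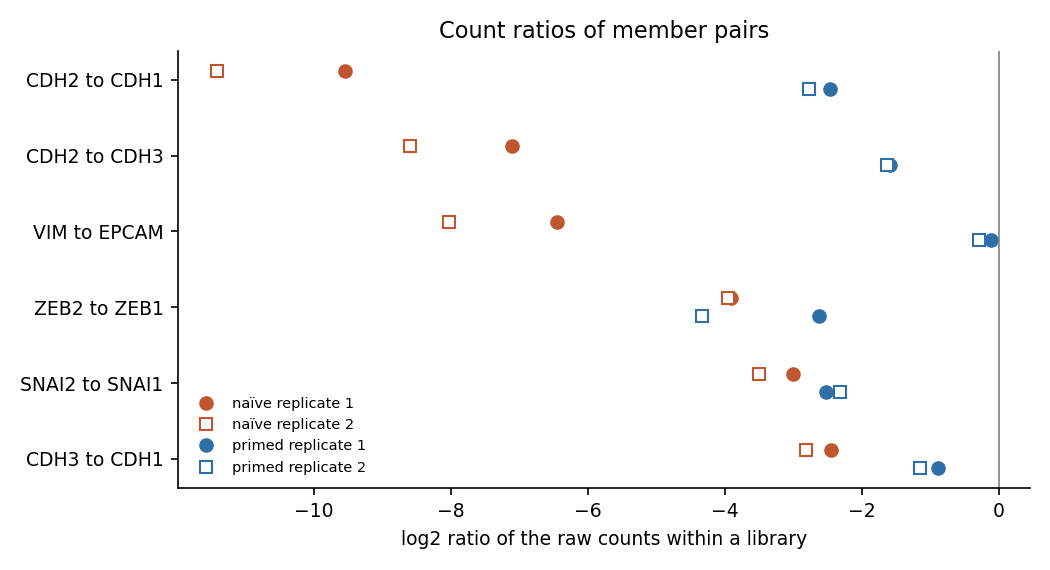
Log2 ratio of raw counts for 6 pairs of members in each library (circles, replicate 1, and squares, replicate 2, in orange for naïve and blue for primed hESCs). The primed libraries lie to the right of both naïve libraries in every pair except ZEB2 to ZEB1, by 7.86 for CDH2 to CDH1 and 7.04 for VIM to EPCAM.

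SNAI1, a repressor of CDH1 (ENSG00000124216, SNAI1-201, chr20:49982980-49988886, plus strand), was counted 200 and 203 times in naïve hESCs, against 46 and 60 times in primed hESCs. No other gene overlaps it, and it has 1 transcript. The mean fell from 8.31 ± 0.504 to 1.76 ± 0.278 CPM (n = 2), a log2 fold change of -2.23 ± 0.22 (adjusted p = 7.3e-12). This member kept its call in each alternative. SNAI1 and CDH1 were thus both higher in naïve than in primed hESCs with TMM scaling.

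SNAI2, the relative of SNAI1 also called Slug (ENSG00000019549, SNAI2-201, chr8:48917598-48921429, minus strand), was counted 25 and 18 times in naïve hESCs, against 8 and 12 times in primed hESCs. The states did not overlap in CPM, at 1.08 and 0.705 against 0.272 and 0.391, but the counts are few. The log2 fold change was -1.41 ± 0.44 (adjusted p = 0.0042), and the naïve level was 2.66-fold the primed one in pooled counts, with a 95% interval of 1.53 to 4.77. The call was lost with DESeq2 (-1.48, adjusted p = 0.063), with library sizes (-0.77, adjusted p = 0.11) and without primed replicate 1 (-1.01, adjusted p = 0.12).

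TWIST1, whose protein drives mesoderm and neural crest programmes (ENSG00000122691, TWIST1-203, chr7:19020991-19116924, minus strand), was counted 29 and 55 times in naïve hESCs, against 4 and 8 times in primed hESCs. Both naïve libraries lay above both primed ones, at 1.26 and 2.15 against 0.136 and 0.261 CPM. The log2 fold change was -3.08 ± 0.44 (adjusted p = 5.3e-08) and the naïve level was 8.66-fold the primed one (95% interval 4.71 to 17.4). TWIST1-203 runs far beyond the rest of the gene. TWIST1-201, which covers the main body of the gene (chr7:19115468-19117636) and overlaps no other gene, was counted 22 and 45 times in naïve hESCs and never in primed hESCs, a level at least 13.6-fold lower in primed hESCs when set against 3 counts per library. The few primed alignments on TWIST1-203 therefore lay outside the body of the gene.

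ZEB1 (ENSG00000148516, ZEB1-205, chr10:31318495-31529202, plus strand) was counted 30 and 31 times in naïve hESCs, against 43 and 81 times in primed hESCs, a log2 fold change of 0.71 ± 0.31 (adjusted p = 0.039). Both primed libraries lay above both naïve ones, narrowly for primed replicate 1, at 1.46 CPM against 1.30 and 1.21. Where those alignments lay differed between the states. In naïve hESCs 22 and 19 of them, 73.3% and 61.3%, overlapped the SPTLC1P1 pseudogene shown above. In primed hESCs the pseudogene held 5 and 11, 11.6% and 13.6%. SPTLC1, the parent gene, had 707, 720, 505 and 472 counts, a log2 fold change of -0.85 ± 0.15 (adjusted p = 4.8e-06), and of -0.22 (adjusted p = 0.20) with library sizes. Its reads can count at both places if alignments at several places were each counted. This was not tested, nor was which place the reads came from.

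With the pseudogene alignments taken off, an alternative added after seeing the data, ZEB1 had 8 and 12 counts in naïve and 38 and 69 in primed hESCs, and the log2 fold change rose to 2.10 (adjusted p = 7.7e-06). Of what remained, 0 and 3 alignments in naïve and 21 and 31 in primed hESCs lay in 630 bases at the 5′ end of ZEB1-205 (chr10:31318495-31319124). This stretch lies before the start of ZEB1-201. The promoter window with 3 E-box matches extends into it, but only the first of these matches lies in the stretch. ZEB1-AS1, the antisense gene that starts there and whose span covers this stretch, had 1, 4, 24 and 39 counts, so strand would be needed to place these alignments. The rest of the ZEB1 span held 8 and 9 alignments in naïve and 17 and 39 in primed hESCs, a log2 fold change of 1.40 (adjusted p = 0.0059). With and without these stretches the log2 fold change of ZEB1 ranged from 0.71 to 2.10. Of the 22 ZEB1 transcripts tested as they were counted, 2 were called, and their values ran from -0.16 to 1.47. With counts summed over its transcripts, each of which counts a shared alignment again, it was 0.12 (adjusted p = 0.75), and with DESeq2 0.66 (adjusted p = 0.21). Without naïve replicate 1, naïve replicate 2 or primed replicate 2 the call was lost as well (0.70, 0.60 and 0.38, with adjusted p from 0.088 to 0.41).

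**Figure D4:**
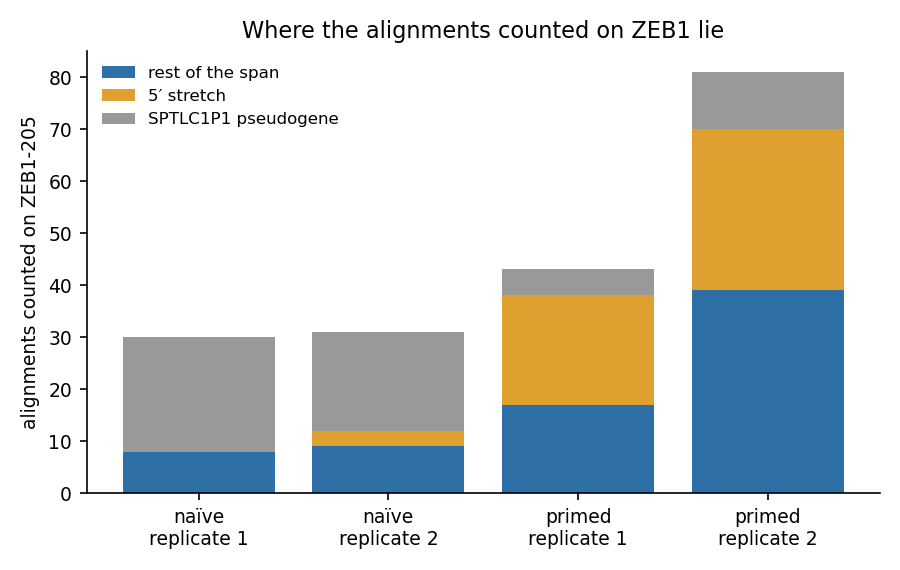
Number of alignments counted on ZEB1-205 in each library, split into those that overlap the SPTLC1P1 pseudogene (grey), those wholly in the 5′ stretch shared with ZEB1-AS1 (orange) and the rest of the span (blue). The pseudogene held 22 of 30 and 19 of 31 alignments in naïve hESCs and 5 of 43 and 11 of 81 in primed hESCs.

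ZEB2 (ENSG00000169554, ZEB2-235, chr2:144384081-144520362, minus strand) was counted 2 and 2 times in naïve hESCs, against 7 and 4 times in primed hESCs, and was not tested. The naïve values are under the limit that a count of 0 allows, and the pooled ratio of 2.22 has a 95% interval of 0.659 to 9.57. Without the count filter the log2 fold change was 1.10 (adjusted p = 0.38). Summed over its 50 transcripts, where an alignment is counted on each, it was 1.18 (adjusted p = 0.0083), so a difference was not detectable from 1 count per alignment at this depth.

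Levels of different members were compared per kilobase of exon of the counted transcript, although the counts also hold intronic alignments. In naïve hESCs the order of mean CPM per kilobase was EPCAM (31.9 ± 12.9, SD, n = 2), CDH1 (21.3 ± 1.41), SNAI1 (4.87 ± 0.296), CDH3 (3.71 ± 0.434) and TWIST1 (3.24 ± 1.21), and the other members lay at 0.410 or less. EPCAM and CDH1 lay within 1 SD of each other on this scale, as did CDH3 and TWIST1. In primed hESCs it was EPCAM (40.7 ± 0.596), VIM (24.7 ± 2.45), CDH1 (13.7 ± 1.87), CDH3 (7.30 ± 0.0530), CDH2 (2.65 ± 0.0356) and SNAI1 (1.03 ± 0.163), with the other switch factors at 0.376 or less. The neighbours from EPCAM down to SNAI1 were separated by more than their SDs there. Among the 3 cadherins CDH1 stood highest, CDH3 next and CDH2 last in both states. The exons of TWIST1-203 add up to only 527 bases, which raises its value. Without division by length the order differed, except among the 3 cadherins. In naïve hESCs CDH1 then stood at 102 ± 6.79 CPM, EPCAM at 47.8 ± 19.4, CDH3 at 16.5 ± 1.93, SNAI1 at 8.31 ± 0.504 and TWIST1 at 1.71 ± 0.635. In primed hESCs CDH1 stood at 66.0 ± 9.0 CPM, EPCAM at 61.1 ± 0.895 and VIM at 53.3 ± 5.28. Which scale is nearer to the number of molecules was not tested.

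Differential isoform usage was tested for 76 transcripts of 8 members, all but SNAI1 and ZEB2. None was called at an adjusted p under 0.05 with a change in isoform fraction (dIF) beyond 0.1, beside 0.545% of 159577 transcripts tested. At an unadjusted p under 0.05 there were 2, both of CDH3. CDH3-204 took 10.9% and 9.41% of the CDH3 isoform fraction in naïve and 5.67% and 5.40% in primed hESCs (adjusted p = 0.012, dIF = -0.046), and CDH3-209 took 13.2% and 15.1% against 19.2% and 18.3% (adjusted p = 0.36). TWIST1-203 made up 51.2% and 50.1% in naïve and 100% in primed hESCs, with dIF = 0.49 and adjusted p = 0.82 at the counts above. Its exons add up to 527 bases, which raises its naïve share, as the fraction divides by exonic length.

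Genes around the members were grouped in 7 lists, and the counts stand beside the 70.0% of all genes called and their median of 0.079 on the log2 scale. The lists were chosen with earlier results of these data known. Their counts and medians therefore describe the listed genes and test nothing about a programme. Of 19 other cadherins, 14 were tested, 9 were higher and 2 lower in primed hESCs, with a median of 1.95 (11 higher and 1 lower with library sizes). CDH4, the R-cadherin gene, rose from 0.234 ± 0.22 to 8.59 ± 1.82 CPM, CDH13, whose protein is anchored in the membrane by lipid, from 2.40 ± 0.818 to 13.6 ± 0.571, and CDH8 from 2.58 ± 0.340 to 10.7 ± 0.733. CDH5, the cadherin of endothelium, fell from 5.14 ± 0.0413 to 0.0339 ± 0.0480 CPM (n = 2, here and for the genes that follow). CDH12 had the largest count in the list, but 96.1% of it overlapped HSPD1P1 or another of the 3 pseudogenes inside its span.

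All 11 genes in the list of catenins and adaptors were called, 6 higher and 5 lower (6 and 3 with library sizes), with a median of 0.75. Among those that fell, CTNND1 (p120) went from 104 ± 6.70 to 31.7 ± 1.43 CPM, JUP (plakoglobin) from 70.1 ± 0.216 to 21.8 ± 1.98 and CTNNB1 (β-catenin) from 78.7 ± 12.2 to 32.0 ± 2.24. CTNND2, known from neurons, rose from 0.482 ± 0.238 to 8.42 ± 1.97, PKP4 from 5.27 ± 0.963 to 24.2 ± 3.30 and ARVCF from 0.884 ± 0.0244 to 3.18 ± 0.896.

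Epithelial junction and keratin genes were mostly lower in primed hESCs: of 30 tested, 21 were lower and 4 higher, with a median of -1.18 (19 and 8 with library sizes, median -0.54). The 21 include TJP1, for which 73.9% of the alignments overlapped a pseudogene inside its span. The desmosomal cadherin DSC2 fell from 28.1 ± 5.56 to 4.87 ± 0.752 CPM and the keratin KRT8 from 1017 ± 61.9 to 198 ± 14.3. MAL2 rose from 0.495 ± 0.0352 to 5.57 ± 0.192, the claudin CLDN6 from 147 ± 23.8 to 233 ± 1.17 and MARVELD3 from 5.26 ± 0.0908 to 7.75 ± 0.0829, the last not called with DESeq2 (0.51, adjusted p = 0.059). Of the 14 epithelial regulators tested, 11 were lower and 1 higher, with a median of -2.54 (11 and 3 with library sizes). The transcription factors TFAP2A (37.6 ± 2.71 to 0.0509 ± 0.0720 CPM), GRHL1 (23.7 ± 0.522 to 0.982 ± 0.0519) and KLF5 (14.9 ± 2.98 to 0.829 ± 0.117) fell, and GRHL2 rose from 11.6 ± 0.653 to 15.7 ± 2.63, a call lost with DESeq2 (0.39, adjusted p = 0.088). Trophoblast markers moved with both groups: 15 such genes summed to between 2988 and 3323 CPM in naïve and to between 11.9 and 13.8 CPM in primed hESCs, and their part in these differences was not tested.

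Of 32 mesenchymal effectors, 19 were higher and 7 lower in primed hESCs, with a median of 1.16 (23 and 5 with library sizes). THY1 had 0 and 0 counts in naïve and 2039 and 1888 in primed hESCs, at least 528-fold higher against 3 counts per library; it also marks the primed state. S100A4 rose from 0.22 ± 0.188 to 18.2 ± 0.0784 CPM and the collagen COL1A2 from 0.528 ± 0.195 to 21.8 ± 3.01. The matrix protease MMP14 fell from 19.4 ± 1.35 to 2.84 ± 0.0825 and the fibronectin gene FN1 from 71.1 ± 8.23 to 26.9 ± 0.351. Among 18 other switch factors only 11 could be tested, 4 higher and 3 lower, with a median of 0.28. TCF4, the E2-2 partner of TWIST1, rose from 1.18 ± 0.230 to 42.9 ± 8.40 CPM, the chromatin protein HMGA2 from 0.512 ± 0.0508 to 11.9 ± 2.38 and TCF3 (E2A) from 3.46 ± 0.0133 to 9.63 ± 1.04, while KLF8 fell from 3.78 ± 0.0799 to 0.296 ± 0.227 and GATA6 from 3.61 ± 0.383 to 0.874 ± 0.468. Of 23 partners, such as corepressors, 8 were higher and 8 lower, with a median of -0.14 (14 and 2 with library sizes). The corepressor CTBP2 rose from 20.4 ± 1.95 to 50.2 ± 2.73 CPM and AJUBA from 3.06 ± 0.450 to 5.91 ± 0.288, while RCOR1 fell from 71.6 ± 4.14 to 17.6 ± 2.76, the kinase LATS2 from 39.3 ± 2.76 to 14.1 ± 2.13 and GSK3B from 33.7 ± 5.75 to 18.8 ± 3.05, the last not called with library sizes (-0.21, adjusted p = 0.27).

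**Figure D5:**
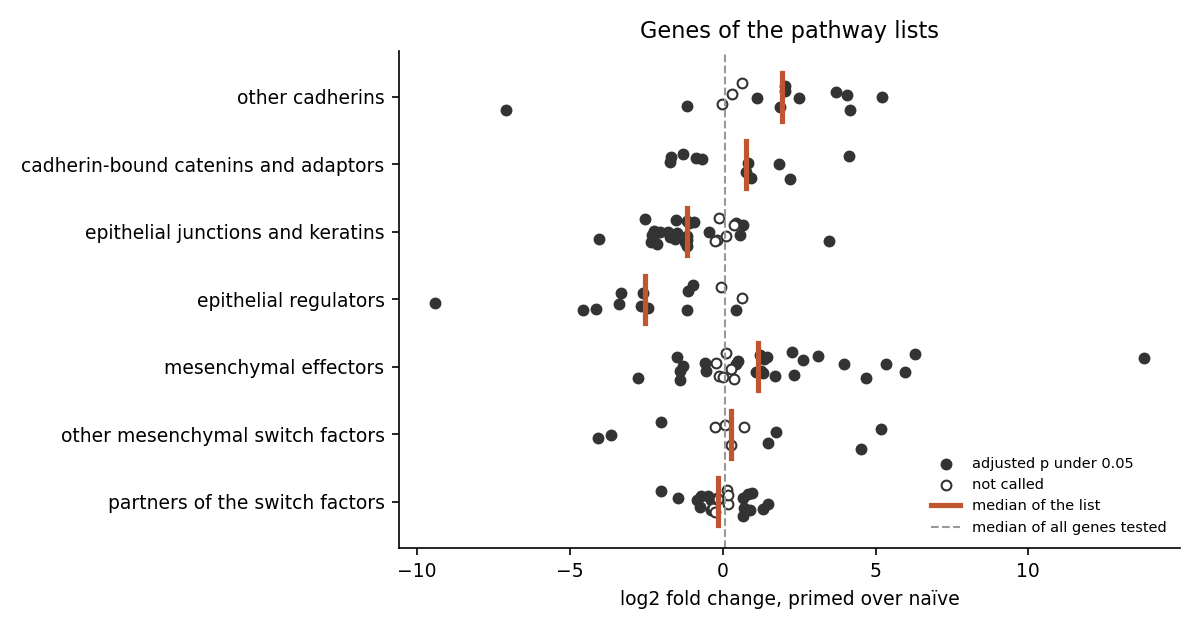
Log2 fold change, primed over naïve, of each gene tested in 7 lists (filled, adjusted p under 0.05, open, not called), with the median of each list in orange and that of all genes as a dashed line. Epithelial regulators have the lowest median, -2.54, and other cadherins the highest, 1.95; the point at the far right is THY1, with no count in naïve hESCs, whose fitted value is not a bound.

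The states were set beside markers. These were chosen with earlier results of these data known, so they are no independent check of the states. DPPA5, the most abundant of the 8 naïve markers, stood at 662 ± 88.9 CPM in naïve and 1.57 ± 0.233 in primed hESCs, and all 8 were called lower in primed hESCs (7 with library sizes). For KLF17, among these, 99.2% of the alignments overlapped a pseudogene inside its span. All 8 primed markers were called higher in primed hESCs, with THY1, SFRP2 and FZD7 at 0 counts in both naïve libraries. Markers of trophoblast moved with the naïve state: 14 of 15 were called lower in primed hESCs, with the summed levels given above, led by CGA at 1705 ± 222 CPM in naïve hESCs. VGLL1 was at 0 in both primed libraries. Of this list, TFAP2A and KRT7 are also in the epithelial lists. The sum of the 5 amnion markers ran from 17.7 to 19.2 CPM in naïve and from 3.98 to 5.19 CPM in primed hESCs, all 5 called lower, led by GABRP, whose call was lost with library sizes (-0.11, adjusted p = 0.67). Of 10 mesoderm and fibroblast markers 6 were tested, of which 3 were higher and 3 were not called (by DESeq2 1 was higher), and their sum ran from 4.07 to 4.85 CPM in naïve and from 36.7 to 43.4 CPM in primed hESCs, led by COL1A1. Of 6 endoderm markers 4 were tested, 1 higher and 2 lower, with HNF4A the highest and FOXA2 at 0 in both naïve libraries. All 4 neural markers tested were higher, NES from 1.95 ± 0.240 to 12.6 ± 0.246 CPM, with SOX1 at 0 in naïve hESCs. The part of these cell type markers in the levels of the members was not tested.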

How the data were processed

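Total RNA of 2 naïve and 2 primed H1 libraries was sequenced as Nanopore cDNA. The authors aligned the reads to GRCh38 with minimap2 and counted them with featureCounts 2.0.0 on the transcripts of Ensembl release 105. The deposited values are raw counts, not normalized, over whole transcript spans, without strand. An alignment adds to every overlapping transcript, so overlapping genes share counts. Whether a read aligned at several places was counted at each was not tested. If so, reads of a gene can count on its pseudogene copies. Intervals cover counting error only.

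Transcripts were matched to GENCODE release 44, with 242542 of 244825 matched, 97.9% of them at the same span, and 1.00% of counts unmatched. A gene took the count of its transcript with the largest mean count. Genes that reached 10 counts in 2 or more libraries were tested with edgeR 4.0.16 (TMM, quasi-likelihood, two-sided, Benjamini-Hochberg adjustment over all 27633 genes tested, adjusted p under 0.05). Isoform usage was tested with diffSpliceDGE, with a dIF beyond 0.1 for a call. DESeq2 1.42.0 was an alternative, beside library size, other count filters, summed transcripts, transcripts overlapping no other gene, a log2 threshold of 1, the replicate block and each library left out. Taking pseudogene alignments off was added after seeing the data.

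The members, gene lists and markers were chosen with earlier results of these data known. Named were all members, genes overlapping them, from each list the 3 called genes with the largest change in each direction (mean count of at least 50, both primed libraries on 1 side of both naïve ones), and of the markers the most abundant genes and those at 0. MIR200CHG, SPTLC1, CDH12, TJP1, CTNNA2 and KLF17 were named after their values were seen. Some genes that the rule names are not reported here.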

Additional observations from a re-analysis of the deposited data

How the results depend on the processing

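The members called numbered 8 of 9, beside 70.0% of all genes tested. With library sizes they numbered 7 of 9 (72.5% of all genes) and with DESeq2 6 of 9 (58.7%). With at least 50 counts asked for they numbered 6 of 6, beside 13804 of 18953 genes. Without a count filter they numbered 8 of 10, beside 21141 of 50139 genes, and with summed transcripts 8 of 10, beside 18583 of 29356. On transcripts overlapping no other gene 8 of 8 members were called. The members called were 9 of 9 with the replicate block and 8 of 9 with pseudogene alignments taken off. They fell to 5 with a log2 fold change beyond 1 (CDH2, VIM, SNAI1, SNAI2 and TWIST1), and ranged from 4 to 7 with each library left out. Without a primed library, CDH2 and VIM no longer had 10 counts in 2 libraries, and only 7 members were tested. Without a naïve library, TWIST1 was lost in the same way, and 8 members were tested. Part of the fall in the number called thus came from members that were not tested. With a library left out, a state had 1 library, whose spread was taken to be that of the other state. Same-numbered libraries did not deviate together (correlation 0.04 over all genes tested), and no label ties the numbers to a shared culture; the fit with the replicate number as a block called all 9 members tested, EPCAM included (0.41, adjusted p = 0.0052), and 19689 genes in place of 19336. CDH1 turned from -0.63 to 0.0019 with library sizes, EPCAM from 0.35 to a range of -0.072 to 0.78 with a library left out (the lowest without naïve replicate 1), and ZEB1 from 0.71 to -0.16 (adjusted p = 0.72) in ZEB1-206, the lowest of its transcripts; the cause was not tested. The ratio difference of ZEB2 to ZEB1 was 0.45 and became -0.98 with pseudogene alignments taken off, as ZEB1 then lost most of its naïve counts, and ran from -0.41 to 1.31 with a library left out. That of CDH3 to CDH1 was 1.96 on transcripts that overlap no other gene, in place of 1.62. Over all single-member values, 97 of the alternatives kept direction and call, 10 lost the call, 7 gained it (all for EPCAM) and 3 turned direction. Genes called over the whole table ran from 13606 to 16843 with a library left out. No member isoform was called under any alternative, though counts over shared spans cannot show which isoforms were used. Of the members, SNAI2 had at most 25 counts in a library and ZEB2 at most 7, which limits what could be detected for these genes.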

Other observations

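Pseudogenes inside introns touched other genes of the lists as they did ZEB1. Of 200 list and marker genes, 21 had at least 1 pseudogene within the span of the counted transcript. In 3 of them at least 50% of the counted alignments overlapped such a pseudogene. KLF17, a transcription factor used as a marker of naïve hESCs, had 2200, 2423, 2083 and 2236 counts in naïve replicates 1 and 2 and primed replicates 1 and 2. Of these, 2169, 2386, 2081 and 2231 overlapped a processed pseudogene, ENSG00000233514, at chr1:44122153-44122512, which leaves 31 and 37 in naïve and 2 and 5 in primed hESCs. CDH12 had 5763, 6437, 9735 and 8712 counts. Of these, 5688, 6354, 9320 and 8105 overlapped HSPD1P1 or another of the 3 pseudogenes inside its span. The rest numbered 75 and 83 in naïve and 415 and 607 in primed hESCs. TJP1, the tight junction scaffold ZO-1, had 73.9% of its alignments on HMGN2P5, and those outside it numbered 744 and 1062 in naïve and 1155 and 1195 in primed hESCs. The call of TJP1 as lower in primed hESCs rests on the full count, and was not tested on the alignments outside the pseudogene. CTNNA2, the neural α-catenin, had 46.2% of its alignments on RBM7P1 or another of the 3 pseudogenes inside its span. The rest numbered 61 and 43 in naïve and 668 and 914 in primed hESCs.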
